A study of Mus musculus with 12 samples.

Results

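The regions described here are stretches of chromatin that were listed as open in every LPS-treated library of 2 RAW264.7 macrophage lines and in no untreated library of either line. They were chosen from the calls themselves: peaks of all 12 lists that overlapped or touched were merged, and a region was kept when each of the 6 LPS lists had a peak in it and none of the 6 untreated lists did. Of 100374 merged regions, 76042 had a peak in at least 2 lists, and 432 of these met the rule. This is 0.568% of the 76042 regions. The opposite pattern, a peak in all 6 untreated lists and in no LPS list, was met by 38 regions (0.05%). The rule fixes both directions, so nothing is read from these shares and no test of LPS against untreated cells is given for the 432 regions.

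The assay was ATAC-seq, in which a transposase cuts and tags accessible DNA. RAW264.7 is an established mouse macrophage-like cell line. Stable lines carried either GFP, a fluorescent protein that served as the control transgene, or Nur77, a nuclear receptor encoded by Nr4a1, under a doxycycline-inducible promoter. All 4 groups received 1 µg/ml doxycycline for 18 h, including the untreated ones, and 2 of the groups then received 500 ng/ml LPS for 1 h. The groups were therefore GFP untreated, GFP with LPS, Nur77 untreated and Nur77 with LPS, with 3 libraries each. The labels do not say whether a line is 1 clone or whether the libraries of a group came from separate cultures, so the spread between them may be technical.

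LPS, a component of the outer membrane of Gram-negative bacteria, is sensed by Toll-like receptor 4 with its partners MD-2 and CD14. Signals through the adaptors MyD88 and TRIF release NF-kB dimers from their inhibitors and activate MAP kinases, which feed AP-1 factors. In macrophages these factors act at gene promoters and at distal enhancers, and some of those enhancers become accessible only after the stimulus.

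The lists held 36184 to 81467 peaks, and the summit of the weakest listed peak was 5 to 8 reads high, depending on the library. The shortest listed peak was 206 to 269 bp long, depending on the library. A region missing from the untreated lists thus had no peak there within these limits, and was not shown to be closed. Inside Nr4a1, a region on chromosome 15 from 101270092 to 101272260 was listed in 6 of 6 libraries of the Nur77 line and 0 of 6 of the GFP line, which fits the line labels. Peaks in all 12 lists lay within 1000 bp of an end of 19 of 24 macrophage identity genes, among them Spi1, Csf1r, Adgre1 and Cd68. The same held for 2 of 8 T cell, 1 of 8 B cell, 1 of 7 fibroblast, 0 of 7 epithelial and 2 of 7 neuronal marker genes.

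Few of the 432 regions covered a promoter for which a sequence was at hand. Among 32817 RefSeq windows of 300 bases (250 before to 50 after a gene start), 10 overlapped one of the regions. The windows of Acod1, Cybb and Sele are shown because their genes act in macrophage activation or leukocyte recruitment and because they differ in where the open region lay against the letters searched. Capitals mark matches on either strand to the NF-kB letters (GGG and CC with any 5 bases between) and to the AP-1 letters TGANTCA; positions are counted from the first base of the gene as 0. The sequences are from RefSeq, build GRCm38.p6, and read 5′ to 3′ along the strand of the gene.
Acod1, chr14:103046762-103047061, plus strand: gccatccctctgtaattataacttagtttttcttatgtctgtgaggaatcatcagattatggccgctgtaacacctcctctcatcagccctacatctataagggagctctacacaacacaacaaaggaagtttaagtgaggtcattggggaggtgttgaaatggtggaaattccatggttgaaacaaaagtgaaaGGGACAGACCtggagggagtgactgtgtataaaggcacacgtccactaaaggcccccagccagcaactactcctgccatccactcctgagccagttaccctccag
Cybb, chrX:9469275-9469574, minus strand: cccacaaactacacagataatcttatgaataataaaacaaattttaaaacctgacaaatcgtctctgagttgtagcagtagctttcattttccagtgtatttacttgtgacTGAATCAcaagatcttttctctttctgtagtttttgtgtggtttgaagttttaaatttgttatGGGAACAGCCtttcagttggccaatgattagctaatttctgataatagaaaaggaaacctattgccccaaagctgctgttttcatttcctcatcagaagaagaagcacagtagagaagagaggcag
Sele, chr1:164047984-164048283, plus strand: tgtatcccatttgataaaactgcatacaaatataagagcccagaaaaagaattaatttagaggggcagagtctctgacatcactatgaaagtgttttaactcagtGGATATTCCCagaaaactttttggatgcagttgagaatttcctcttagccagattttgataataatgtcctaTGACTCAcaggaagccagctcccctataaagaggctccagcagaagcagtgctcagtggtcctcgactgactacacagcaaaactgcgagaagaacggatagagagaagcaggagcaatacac

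Acod1 encodes the enzyme that makes itaconate from cis-aconitate in activated macrophages. Its whole window lay inside a region of 1522 bp on chromosome 14 from 103046297 to 103047818. The NF-kB letters stood at -55 to -46, and the 6 summits lay at -36, -62 and -49 in the GFP line and at -53, -60 and -70 in the Nur77 line. Of the summits, -49 and -53 fell within those letters and the others lay close to them.

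Cybb encodes the catalytic subunit of the phagocyte NADPH oxidase. Its window belongs to a RefSeq start that lies inside the span of the gene, and the region there ran from 9468954 to 9469586 on chromosome X. The AP-1 letters stood at -139 to -133 and the NF-kB letters at -76 to -67, with the summits at 104, 166 and 10 in the GFP line and at -20, -68 and -20 in the Nur77 line. This was a weak region, with summit heights of 10, 9 and 20 reads in the GFP LPS libraries and 16, 10 and 11 reads in the Nur77 LPS libraries.

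Sele encodes E-selectin, an adhesion molecule best known from activated endothelium. The region overlapped 101 bp of its window, from 164048183 onward, and extended into the gene, where its summits lay 391 to 513 bp after the start. Both marked stretches, at -145 to -136 and at -73 to -67, lay outside the region.

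Over the 10 windows, the NF-kB letters occurred in 7, against 50.8% of all 32817 windows, and the AP-1 letters in 2, against 7.81%. A stricter NF-kB consensus, found in 8.46% of all windows, occurred in 1 of the 10, that of LOC115488765, where the match GGGGTTTCCC stood at -22 to -13 and the summits lay between 3 and 62 bp after the start. The letters AAAGGTCA of the element bound by Nur77 occurred in 0 of the 10 windows and 1.51% of all. For PU.1 (GAGGAAGT) and C/EBP (TTGCNNAA), factors that set up macrophage chromatin, the counts were 0 of 10 as well, against 3.2% and 10.8% of all windows. A match describes the letters only, and with 10 windows these counts carry no comparison.

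The 432 regions were mostly away from the ends of genes. Within 1000 bp of an end of a protein-coding gene lay 29 of them (6.71%), against 18.8% of all 76042 regions and 38.5% of the 26378 regions listed in all 12 libraries. Among 3725 other regions listed in exactly 6 of the 12 libraries, which are matched in the number of calls, the share was 8.56%. The median distance to a gene end was 17.8 kb, against 9.83 kb over all regions and 13.5 kb in the other regions with 6 calls. On both measures the 432 regions lay nearer to the other regions with 6 calls than to the constant ones.

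**Figure D1:**
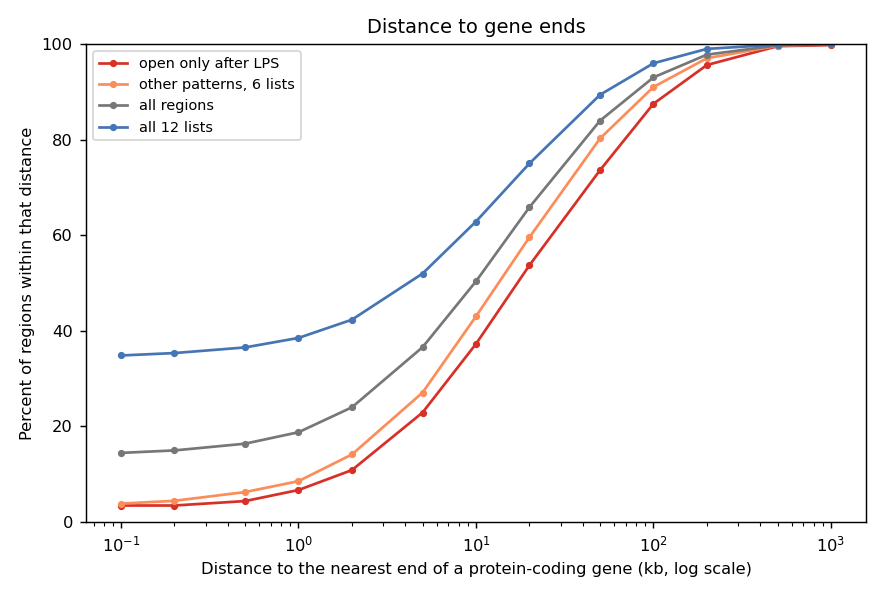
Share of regions (percent) whose distance to the nearest end of a protein-coding gene is at most the value on the x axis (kb, log scale), for the 432 regions listed only after LPS, the 3725 other regions listed in exactly 6 libraries, all 76042 regions and the 26378 listed in all 12. The curve of the LPS-only regions runs lowest over most of the range, with 6.71% within 1 kb.

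Inside the span of a protein-coding gene lay 234 regions (54.2%), against 58.0% of all regions, and 58 (13.4%) were more than 50 kb from any gene, against 8.69%. The nearest peak of any untreated library was at a median distance of 4.2 kb (quartiles 1.54 and 15.1 kb). For 136 regions (31.5%) it was over 10 kb away, and for 72 it was within 1 kb. A region listed in all 12 libraries lay within 10 kb of 191 of the regions (44.2%), which was also the share among other regions with 6 calls. Most were thus separate from, but not remote from, chromatin that was already accessible.

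They were of ordinary size and of middling or low strength. The median width was 902 bp (quartiles 709.75 and 1207.25 bp), against 901 bp over all regions. Strength is given as a percentile, the rank of the authors' -log10 q of the peak within its own list with 100 as the strongest, averaged over the 6 LPS lists, and as the height of the summit in reads. The mean percentile ran from 10.7 to 88.1 with a median of 44.1, and it exceeded 50 in 162 regions and 75 in 14. Median summit heights were 11, 17 and 38 reads in the GFP LPS libraries 1, 2 and 3 and 23, 16 and 16 reads in those of the Nur77 line. The medians over all peaks of the same lists were 14, 19 and 25 reads, and 26, 23 and 21 reads. The 432 regions were above the list median in GFP LPS library 3, which held the most peaks, and below it in the other 5.

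In all 6 LPS lists, 190 regions (44.0%) reached at least 2 times the lowest height of the list, whereas 49 sat at that lowest height in 1 or more lists. A single summit in every list was found in 288 regions. Among these the summits of the 6 libraries spanned a median of 73 bp (quartiles 44 and 127 bp). This span was not measured in other sets of regions. The lists are of unequal length, and which regions met the rule depended on how many peaks of each list were used. When every list was shortened to its strongest 36184 peaks, 547 regions met the rule, and 177 of the 432 (41.0%) overlapped one of them.

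**Figure D2:**
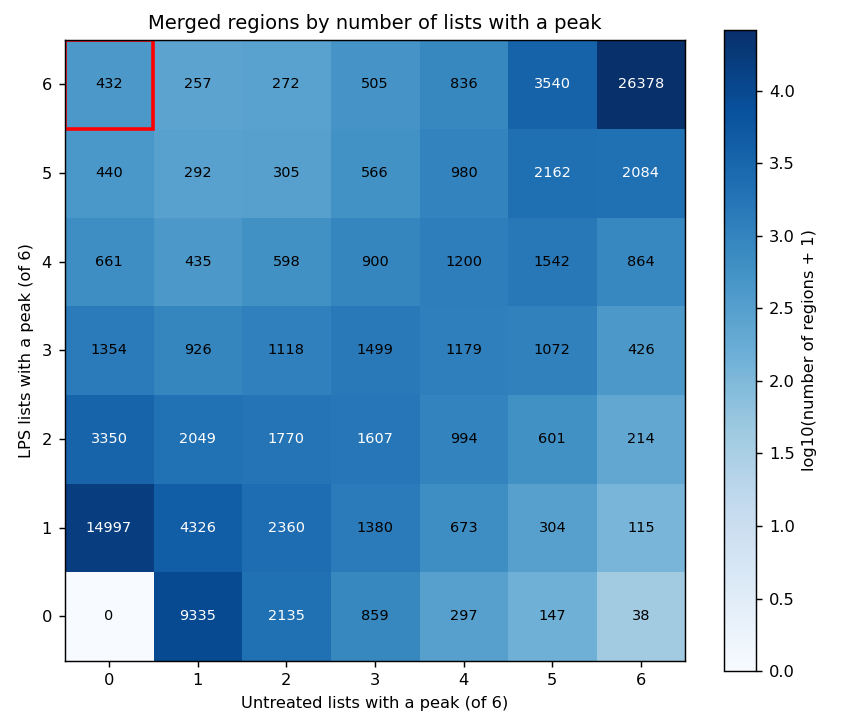
Number of merged regions for each combination of how many of 6 untreated lists (x axis) and how many of 6 LPS lists (y axis) had a peak, with colour as log10 of the number plus 1. The red square marks the 432 regions, beside 257 with 1 untreated peak and 440 with 5 LPS peaks.

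Just outside the rule, 257 regions had a peak in all 6 LPS lists and in 1 untreated list. That list was GFP untreated library 3, with 65061 peaks, for 107 of them. It was GFP untreated library 2, with 65014 peaks, for 50 and Nur77 untreated library 2, with 36184 peaks, for 6. The part of list length in these counts was not tested. Another 440 regions had 5 LPS peaks and no untreated one, and the list that lacked the peak was GFP LPS library 1 for 181 and Nur77 LPS library 2 for 129, the shortest LPS lists. The strongest near miss was a region inside Ptprj, a receptor tyrosine phosphatase also called CD148, on chromosome 2 from 90544822 to 90546216. Its mean percentile was 94.2 ± 1.73 (SD, n = 6), above every region that met the rule, and it was left out by a peak of 11 reads at percentile 21.3 in GFP untreated library 1. On either side of it lay weaker regions that met the rule, at mean percentiles of 21.9 ± 14.3 and 48.8 ± 9.19 (SD, n = 6). The next were inside Gm4606 at 87.1 ± 3.41 and inside Thbs4 at 86.0 ± 3.94. Among regions with 5 LPS peaks the strongest were inside Lrrc28 at 63.9 ± 15.3, near Grin2b at 61.8 ± 10.01 and near H2-Eb1 at 61.3 ± 11.7 (SD, n = 5 each).

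At the weak end of the rule, the region with the lowest mean percentile was inside Adora2a, an adenosine receptor, with summit heights of 5, 9 and 11 reads in the GFP LPS libraries and 10, 9 and 6 reads in the Nur77 LPS libraries. The next were inside Rassf4 at a mean percentile of 11.6 and near Plekhm3 at 12.1, with heights of 5 to 15 reads over the 6 libraries. These heights were at or just above the lowest that is listed, and the part of depth in their absence from the untreated lists was not tested.

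The 25 strongest regions had mean percentiles from 72.1 to 88.1, and in no library was any of their summits lower than 15 reads. All 25 also met the rule in lists of equal length. In 24 of the 25 the summits of the 6 libraries had an SD under 30 bp. By position, 14 lay inside a gene, 6 lay more than 50 kb from one, and 2 were within 1000 bp of a gene end. The exception was the region nearest to Rasa1, with an SD of 91.5 bp.

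Acod1 stood first, with summits of 45, 67 and 159 reads in GFP LPS libraries 1, 2 and 3 and of 106, 93 and 90 reads in the Nur77 LPS libraries. The region 34.3 kb from Nfkbiz, which encodes the nuclear NF-kB cofactor IκBζ, followed with 37, 65 and 105 reads and 104, 79 and 90 reads (chromosome 16 from 55776063 to 55777038). For both, the heights of the lines overlapped, and the lowest was in GFP LPS library 1, whose background was also the lowest of the LPS libraries; the part of depth in this was not tested.

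Next in strength was a region far from any protein-coding gene, 66.3 kb from Dtwd1, on chromosome 2 from 126231606 to 126232402. Its summits were 55, 77 and 152 reads in the GFP LPS libraries and 66, 54 and 38 reads in the Nur77 LPS libraries, and the nearest peak of an untreated library was 70.4 kb away. By the ranks compared between the lines further on, the 3 GFP libraries were all higher than the 3 Nur77 libraries here.

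Other strong regions lay in or far from genes of GTPase signalling, which were not tested as a group. Inside Arhgef3, a guanine nucleotide exchange factor gene, the summits were 26, 70 and 111 reads in the GFP line and 87, 67 and 54 reads in the Nur77 line. A region inside Rapgef1, an exchange factor for Rap1, had a mean percentile of 79.2 ± 3.61 (SD, n = 6), and one 63.2 kb from Rap1b, which encodes a Rap1 protein, had 74.98 ± 5.92. The region nearest to Rasa1, a GTPase-activating protein for Ras, was 339.7 kb from it, so its name marks only the nearest gene.

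Genes of other functions held the remaining places. Regions lay inside Anxa5, a phosphatidylserine-binding annexin, at 78.6 ± 3.71 and inside Lyn, a Src family kinase, at 76.7 ± 8.09. Another lay 2.98 kb from Mmp14, a membrane-bound matrix metalloproteinase, at 76.9 ± 6.8, and another inside Plat, the gene of tissue plasminogen activator, at 74.9 ± 6.59. Downstream of Fpr2, a formyl peptide receptor of phagocytes, a region at 72.5 ± 10.5 lay 39.0 kb from any untreated peak, and a region inside Vmp1, needed for autophagosome formation, stood at 72.3 ± 6.61 (SD, n = 6 for each). The others were inside or nearest to Xxylt1, Col23a1, Gatb, Slc1a2, Dlgap2 (a pair of regions), Mrpl39, Syt7, Dnm3, Wnt7b and Chrng, at mean percentiles from 72.1 to 76.6. Several of these genes are better known from neurons or muscle, and a nearest gene is not shown to be the target of a region.

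**Figure D3:**
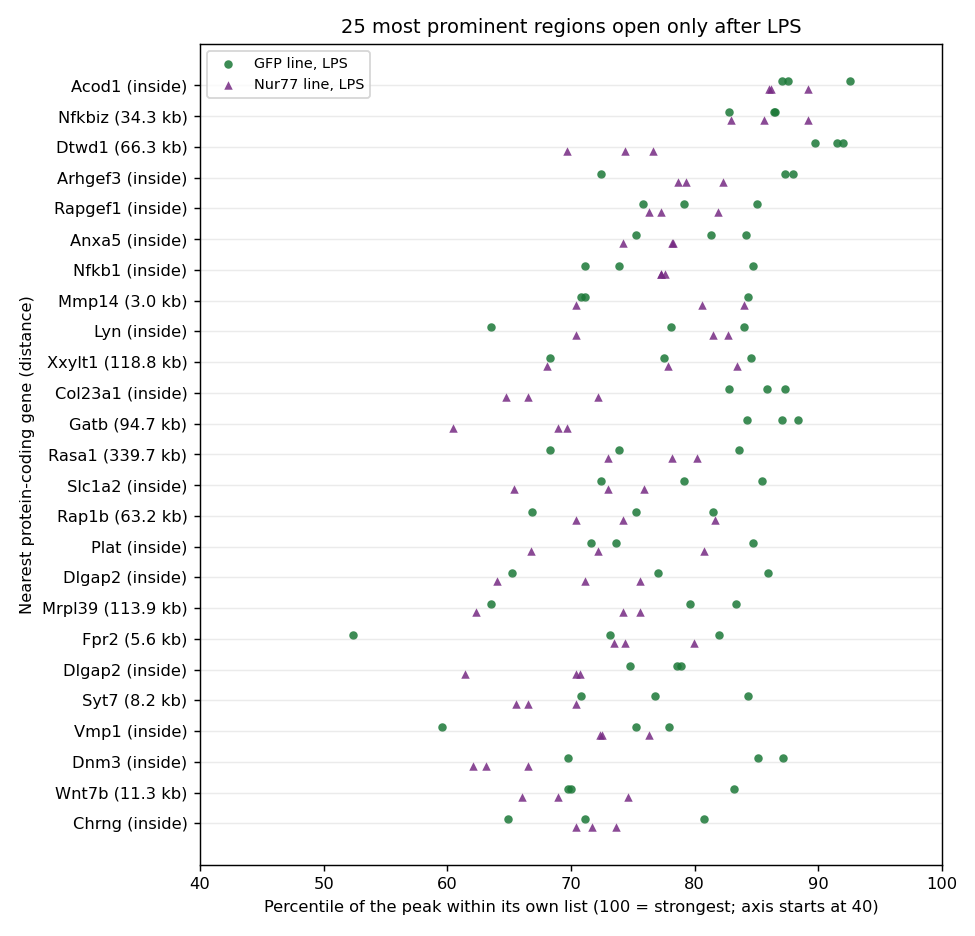
Percentile of the peak within its own list (x axis, 100 is the strongest, starting at 40) in the 3 GFP LPS libraries (circles) and the 3 Nur77 LPS libraries (triangles) for the 25 strongest regions, labelled by the nearest protein-coding gene and its distance. The Acod1 region leads at a mean of 88.1, and the circles of the Dtwd1, Col23a1 and Gatb regions lie to the right of the triangles.

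Genes of the LPS response were then taken list by list, counting regions within 50 kb of the span of a gene. The lists were drawn up with results of these data known, so their counts describe the regions and support nothing further. Over 14 lists of macrophage genes (296 genes), 57 of the 432 regions (13.2%) were that close, against 3958 of all 76042 regions (5.21%).

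Among subunits, inhibitors and feedback regulators of NF-kB, 7 of 20 genes had such a region, 11 regions in all. They made up 3.41% of the 323 regions near the list, against 0.568% of all regions. All 20 genes also had a region listed in all 12 libraries within 1000 bp of one of their ends, so these loci were accessible at a gene end before LPS. Nfkb1, which encodes p105 and its product p50, held 3 regions and had 1 more 41.8 kb away. The strongest of them, on chromosome 3 from 135639377 to 135641929, had summits of 25, 38 and 95 reads in the GFP LPS libraries and 69, 61 and 51 reads in the Nur77 LPS libraries. The next, from 135670085 to 135671292, had 16, 30 and 64 reads and 45, 34 and 33 reads. The other 2 were weak, at mean percentiles of 20.1 ± 10.4 and 28.6 ± 22.7 (SD, n = 6).

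Rel, which encodes the subunit c-Rel, had 2 weak regions 1.49 and 4.84 kb away, at 28.4 ± 17.4 and 23.1 ± 9.73. Traf1, an adaptor of TNF receptors, held a region with summits of 18, 28 and 53 reads in the GFP line and 62, 52 and 26 reads in the Nur77 line. Of the inhibitors, Nfkbib (IκBβ) was overlapped by a region of 6.53 kb at 33.6 ± 7.58, which also overlapped Ccer2 and Sars2. The feedback regulators Tnfaip3 (the ubiquitin-editing enzyme A20) and Tnip1 (an A20-binding protein) had a region 30.3 kb away at 49.7 ± 15.6 and one inside the gene at 46.8 ± 13.7 (SD, n = 6 for each).

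The receptor pathway upstream had few. In the Toll-like receptor 4 list, 2 of 26 genes had a region, 0.667% of the 300 regions near the list, which is close to the share over all regions. One lay inside Ikbkb, the kinase that marks IκB for degradation, with 5, 17 and 42 reads in the GFP LPS libraries and 34, 27 and 14 reads in the Nur77 LPS libraries. The other lay 9.67 kb from Ripk2, a kinase of the NOD receptors, with 14, 25 and 37 reads and 51, 39 and 30 reads. All 26 genes of this list had an end within 1000 bp of a peak found in every library.

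Secreted products of the response came next. In the cytokine and chemokine list, 6 of 33 genes had a region, 6 regions in all (1.74% of 344). A region 0.899 kb from Il1a, the interleukin 1α gene, had summits of 13, 23 and 42 reads in the GFP line and 50, 35 and 33 reads in the Nur77 line. A second, 19.999 kb from Il1a and 32.7 kb from Il1b, had 13, 22 and 60 reads and 28, 19 and 25 reads. The rest were weaker: 1.36 kb from Csf2 (GM-CSF) at 33.6 ± 19.9, inside Csf1 (M-CSF) at 26.0 ± 15.9, 13.5 kb from Il27 at 35.6 ± 13.9 and 10.5 kb from Ccl5 at 14.5 ± 10.7 (SD, n = 6 for each).

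Of the inducible enzymes, 4 of 17 genes had a region (2.40% of 167): Acod1, Mmp14, Mmp9 and Nos2. The Nos2 region was 31.2 kb from this gene of inducible nitric oxide synthase, at 52.3 ± 11.2. The Mmp9 region, inside the gelatinase gene, stood at 48.7 ± 17.7 (SD, n = 6). Each of the 4 genes had a single region.

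Transcription factors and kinases of the early response had between 0 and 3 regions per list, beside the 0.568% of all regions. In the AP-1 and ATF list the count was 3 regions of 309 (0.971%), near Batf and Jdp2, which share 1 region, and near Maff, which had 2. In the list of other early factors it was 1 of 233 (0.429%), a region 29.2 kb from Nfe2l2, and in the MAP kinase list 1 of 295 (0.339%), inside Map3k5, the kinase ASK1. Around mRNA decay factors and SOCS proteins it was 0 of 153 regions. In these lists 18 of 20, 19 of 20, 20 of 21 and 11 of 11 genes had a peak in all 12 libraries at a gene end.

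In the interferon list, 5 of 278 regions (1.8%) met the rule, and all 5 were at Ifih1, the gene of the RNA sensor MDA5. Macrophage identity genes had 0 of 367 regions and genes of glycolysis and hypoxia 0 of 244. Housekeeping genes had 1 of 156, a region 41.2 kb from Actb that was closer to Fscn1.

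Genes of cell death and survival had 7 of 252 regions (2.78%). They included 2 inside Cflar, an inhibitor of caspase-8, at 18.0 ± 9.22 and 20.2 ± 10.3, and 2 inside Nlrp3, the inflammasome sensor, at 47.1 ± 7.79 and 21.8 ± 8.47. Bcl2l1 and Bcl2l11 held 1 weak region each. Bcl2a1a held 1 with summits of 23, 31 and 62 reads in the GFP line and 20, 11 and 15 reads in the Nur77 line, but this gene has near-identical copies, and how reads were divided among them is not given in the sources used here. The list of Src kinases and receptor phosphatases, which also holds other kinases and phosphatases such as Syk, had 5 of 343 regions (1.46%). These lay inside Lyn, Src, Syk and, with 2, Ptprj.

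Markers of other cell types had 1 of 58 regions for T cells (Cd4, 1.72%), 2 of 71 for B cells (both at Blk, 2.82%), 1 of 44 for fibroblasts (Pdgfrb, 2.27%), 1 of 54 for epithelium (Epcam, 1.85%) and 0 of 84 for neurons. The first 4 shares were above the 0.568% of all regions too, and of similar size to those of the cytokine (1.74%) and inducible enzyme (2.40%) lists, so a share above 0.568% was not limited to lists of the LPS response. The stronger Blk region lay 5.07 kb from this Src family kinase gene, with 25, 41 and 100 reads in the GFP line and 47, 30 and 24 reads in the Nur77 line. These lists hold few regions, so a single region moves each of their shares by more than 1 percentage point.

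**Figure D4:**
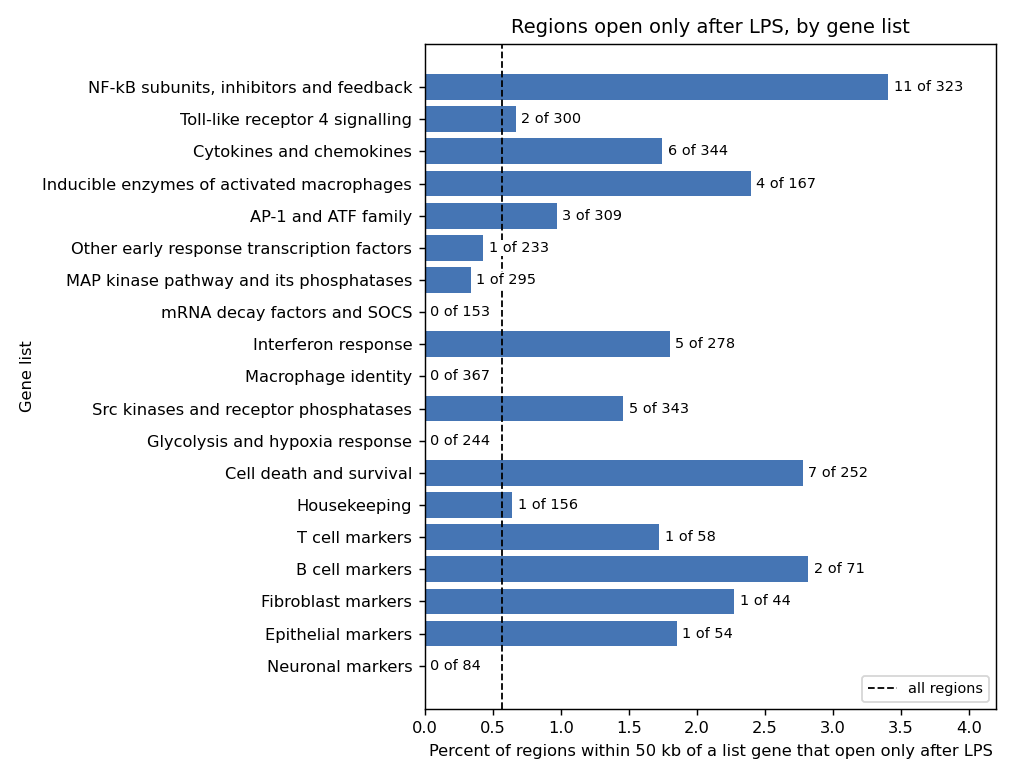
Percent of the regions within 50 kb of a gene of each list shown that were listed only after LPS (bars), with the number of such regions of all regions near the list, and the share over all regions, 0.568%, as a dashed line. The bar of the NF-kB list is the longest at 3.41%, and 4 lists have no such region.

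Some of the regions lay near one another. For 75 of the 432 (17.4%) another of them was within 50 kb, against 4.36% of all regions and 3.73% of the 3725 other regions with 6 calls that had 1 of the 432 so close. The other regions of the rule stood alone at this distance. Some of the 75 were split only by short gaps, such as 340 and 206 bp at Ifih1, and counted as separate regions. Stretches of up to 200 kb that held at least 3 of the regions numbered 12. The densest in number ran over 167.7 kb of chromosome 2 from Slc1a2 to the far side of Cd44 and held 7 of the 34 regions there. The strongest of the 7, inside the glutamate transporter gene Slc1a2, had summits of 26, 47 and 99 reads in the GFP LPS libraries and 64, 38 and 43 reads in the Nur77 LPS libraries. The 6 near Cd44 had mean percentiles between 26.6 and 47.6.

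The second, of 55.3 kb, held 5 of 20 regions at Ifih1 and the neighbouring Fap. A pair of very wide regions, 8.60 and 8.51 kb long, lay end to end over and beyond the 3′ end of Ifih1, from 62578454 to 62595898. Their strongest summits were 17, 25 and 59 reads in the GFP line against 31, 29 and 20 reads in the Nur77 line for the former, and 13, 26 and 48 reads against 28, 34 and 25 reads for the latter. The nearest untreated peak was 34.5 and 43.4 kb away. The other 3, inside the gene, were weak, at 18.4 to 21.1.

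Further stretches of 3 regions lay beside Peli1, an E3 ubiquitin ligase of Toll-like receptor signalling, and Tank, a binding partner of TRAF proteins and TBK1. At Peli1, 1 region of 5.45 kb began 6.83 kb past the gene and had summits of 13, 17 and 43 reads in the GFP line and 25, 18 and 19 reads in the Nur77 line. All 3 Tank regions lay within 12.03 kb of the 3′ side of the gene in a stretch of 9.44 kb that held 4 regions in all, at mean percentiles of 23.7 to 29.1. The other stretches of 3 were at Cflar, Nrp2 and Pard3b, Adora2a, Abr, Il1a and Slc20a1, Pcdh7, and a stretch of chromosome X.

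Wide regions were then looked at together, a group chosen after their values were seen. Of the 432, 25 were wider than 3 kb, and 8 were wider than 5 kb. Within 10 kb downstream of the 3′ end of a gene lay 14 of these 25 (56.0%), against 51 of the 432 (11.8%), 37.5% of all 4036 regions wider than 3 kb and 17.7% of all regions. Several genes of the response were among those of the 25, such as Ifih1, Peli1, Nlrp3, Ccrl2 and Cybb. Both Ifih1 regions and both Nlrp3 regions are counted in the 14. The Nlrp3 regions lay inside Nlrp3 and were counted as downstream of Olfr222. At Cybb, a region of 3.49 kb over the 3′ end had summits of 15, 23 and 34 reads in the GFP line and 40, 26 and 15 reads in the Nur77 line. These summits were higher than those at the start inside Cybb shown above in every library. The widest of all, 12.5 kb, covered Rbm48 and 1700109H08Rik at 44.3 ± 9.64 (SD, n = 6), and an untreated peak lay 0.256 kb from it. Over the 25, the median of the mean percentile was 36.0, against 44.7 in the 407 narrower ones. Regions above this cut of 3 kb were thus not stronger as a group. Width and strength were not compared below the cut. Merging can make regions wider where peaks of different libraries adjoin. In the Ifih1 region of 8.60 kb, the strongest peak of each library by itself held 4 to 10 summits.

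The second widest, 10.5 kb on chromosome 16 from 84715475 to 84725928, began 1.27 kb from the hairpin of Mir155. Its strongest summits were 18, 42 and 69 reads in the GFP line and 57, 49 and 40 reads in the Nur77 line, and the percentiles averaged 71.9 ± 6.70 (SD, n = 6). The region reached into the 3′ part of the gene Mrpl39. miR-155 is known as a microRNA induced by Toll-like receptor ligands. Hairpins were looked up after this was seen: of 1005 microRNA hairpins in the RefSeq table, 663 had some region within 10 kb, and 9 had 1 of the 432, over 7 regions. On chromosome X, a weak region from 19151568 to 19154104, with 9, 9 and 13 reads in the GFP line and 9, 9 and 7 reads in the Nur77 line, lay 4.6 kb from the hairpin of Mir222 and 5.18 kb from that of Mir221, which share a cluster. The other 6 hairpins were Mir7001, Mir7043, Mir7059, Mir6963, Mir192 and Mir194-2. The mature sequences of the named ones are shown with the seed, bases 2 to 8, in capitals, since miR-221-3p and miR-222-3p have the same seed and miR-155-5p another (RefSeq, build GRCm38.p6).
miR-155-5p: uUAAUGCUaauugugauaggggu
miR-221-3p: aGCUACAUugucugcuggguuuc
miR-222-3p: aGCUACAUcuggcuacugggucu

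The rule did not use the difference between the lines, so this was compared. All 6 LPS lists called the same 32220 regions, and each list was ranked over these by the deposited -log10 q, as percent with 100 as the strongest, which removes differences in list length. With 3 libraries against 3, the smallest two-sided exact p is 0.1, so no p is given for a region, and regions were only counted where the 3 ranks of one line lay above the 3 of the other. The GFP line was higher in 87 of the 432 (20.1%), against a background of 14.5% over the 32220 regions. The Nur77 line was higher in 59 (13.7%), against 14.5%. In the remaining 286 the ranks overlapped. Regions listed in all 6 LPS lists and in 1 to 5 untreated lists, which are also of low to middling rank, gave 23.9% and 8.08% (n = 5410). The share of the 432 with the GFP line higher was thus not above that of such regions, while the share with the Nur77 line higher was. The median difference, Nur77 minus GFP, was -1.45 rank points in the 432, -2.66 in such regions and 0.68 over all ranked regions.

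**Figure D5:**
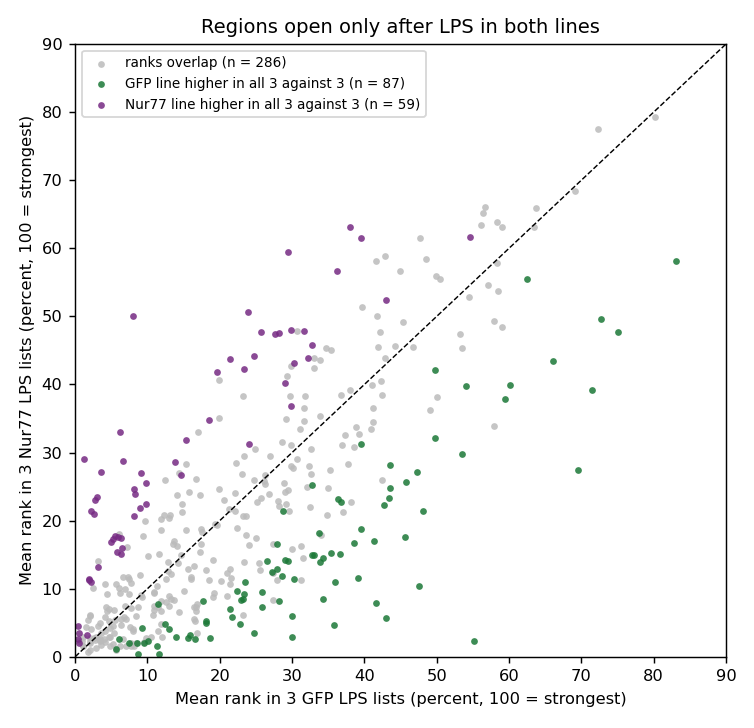
Mean rank in the 3 GFP LPS lists (x axis) against mean rank in the 3 Nur77 LPS lists (y axis), in percent of the 32220 regions called in all 6 LPS lists, for each of the 432 regions. Green points (n = 87) had all GFP ranks above all Nur77 ranks, purple points (n = 59) the reverse, grey points (n = 286) overlapped, and the dashed line marks equal ranks.

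The region with the largest difference was inside Rbfox1, which encodes a splicing factor, on chromosome 16 from 6841756 to 6842868. Its ranks were 52.4, 58.3 and 54.9 in the GFP LPS libraries and 3.94, 2.22 and 0.686 in the Nur77 LPS libraries. Its summits were 22, 41 and 81 reads in the former and 15, 8 and 7 reads in the latter. The lines did not overlap in rank, and in Nur77 LPS libraries 2 and 3 the region was close to the lowest listed height.

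A region inside Akna, which encodes an AT-hook protein, had ranks of 73.7, 67.8 and 67.0 in the GFP line and 19.4, 36.8 and 26.3 in the Nur77 line. Next was the region nearest to Spdye4c, at a distance of 156.8 kb and over the start of the noncoding gene Gm29010, at 43.0 ± 4.97 and 5.69 ± 3.47 (SD, n = 3 each). It was followed by the Bcl2a1a region at 47.6 ± 6.13 and 10.4 ± 3.02, with the limit on its copies given above, and by a region inside Samd4 at 41.6 ± 5.17 and 7.93 ± 1.93.

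In the other direction, the Map3k5 region on chromosome 10 from 19936626 to 19937640 had ranks of 4.59, 5.59 and 13.9 in the GFP LPS libraries and 45.1, 59.0 and 46.1 in the Nur77 LPS libraries. Its summits were 7, 11 and 33 reads against 49, 45 and 33 reads. It was followed by regions 0.423 kb from Zfp811 at 29.4 ± 10.7 and 59.5 ± 5.77, near Gata5 at 1.17 ± 1.30 and 29.0 ± 15.6, 104.1 kb from Igf1 at 6.22 ± 3.65 and 33.0 ± 5.95, and inside Calcrl at 23.9 ± 1.04 and 50.6 ± 11.6 (SD, n = 3 each, GFP first).

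Of the 57 regions near the macrophage lists, 8 ranked higher in the GFP line, among them those at Tnfaip3, Tnip1, Csf1 and Syk. In the Nur77 line 7 ranked higher, among them those at Il1a, Il27, Ccl5 and Ripk2, and 42 overlapped. Over all 32220 ranked regions the share was 14.5% in each direction. The counts of the 57 were close to that share, so no line difference at these genes is read from them. Of the 25 strongest regions, 5 ranked higher in the GFP line (those at Dtwd1, Col23a1, Gatb, Slc1a2 and Dnm3), 1 in the Nur77 line (Rap1b), and 19 overlapped. These 25 are too few to set against the 14.5%. Across the 432 regions, Spearman's correlation of the ranks was 0.716 to 0.848 between libraries of a line (6 pairs, median 0.815) and 0.539 to 0.692 between libraries of different lines (9 pairs, median 0.635). Over all 32220 regions the medians were 0.952 and 0.898. The 432 regions lay mostly at low ranks, with medians of 13.8 to 19.9 per library. They are thus not matched in rank to all 32220, and no difference is read from these coefficients. These coefficients run over regions, which are not independent, and libraries of a line share its cells and transgene. Background heights of the 3 GFP LPS libraries ran from 0.411 to 1.45 reads and those of the Nur77 LPS libraries from 0.612 to 0.988; their part in the rank differences was not tested. Leaving out 1 library changed these counts: 168 regions were higher in the GFP line without Nur77 LPS library 2 (29.8%, against 18.6% of all) and 110 in the Nur77 line without GFP LPS library 1 (17.9%, against 20.5%).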

How the data were processed

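The 12 ATAC-seq libraries were assigned to 4 groups of 3 by title, genotype and treatment. Tagmentation for 45 min at 37 °C was followed by purification of fragments under 700 bp, per the labels' protocols. The submitters' processing notes name cutadapt 2.6, DiffBind 3.0.15 and build mm10. Aligner and peak caller: not given in the sources used here. Each library has its own list, whose peak names carry tags for mapping quality 20, for mitochondrial and duplicate reads taken out, and for q 0.001.

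The deposited columns are the authors' whole-number score, their fold enrichment of the summit over background (a ratio), and their -log10 p and -log10 q values per peak. These were used to rank, filter or describe peaks inside their own list only. The fold values of a list are evenly spaced, which gives the background height; the summit height in reads is fold times (background plus 1), minus 1 (100% of folds whole within 0.1 reads). Read totals are unknown.

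Rows with equal start and end were collapsed, chromosomes 1 to 19, X and Y kept, and overlapping or touching peaks merged. A library called a region when 1 of its peaks lay in it. Starts are 1-based. Genes are the 21887 protein-coding genes of RefSeq, build GRCm38.p6, the same assembly as mm10. Gene starts with strand were at hand for 17492 of them, so distances use gene ends, and upstream and downstream classes use those 17492. None was at hand for chromosome 18. Its 13 regions of the rule and 2105 of all regions could not be classed, but stay in the denominators of those shares. No genome was given, so motifs were searched only in RefSeq promoter windows. Of 343 genes in 20 lists, Mx1 and Mx2 were not matched; 1 list is not reported here.

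Regions named are the 25 strongest, the strongest per list gene, the 3 weakest, stretches with most regions, the 3 strongest near misses of each kind, and the 5 with the largest line difference each way. Wide regions, 3′ end classes, microRNAs, the 2-fold height and named regions outside this rule were chosen after their values were seen. The regions and lists were chosen with earlier results of these data known. Alternatives were other list lengths, q thresholds, overlap rules, distances, the fold in place of q, and leaving out each library. Merging and ranking were tested on simulated data. Python 3.11.15, numpy 2.4.6, pandas 2.3.3 and matplotlib 3.10.9 were used.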

Additional observations from a re-analysis of the deposited data

How the results depend on the processing

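The number of regions met by the rule ran from 375 (a peak must cover 50% of the region) to 547 (lists of 36184 peaks) over the planned list lengths, q thresholds and overlap rules, and from 438 to 614 when 1 library was left out, the highest without GFP LPS library 1. Regions at a gene end numbered 19 within 500 bp and 53 within 2500 bp, in place of 29, and 27 to 37 with 1 library left out. Those near the macrophage lists numbered 48 of 547 in lists of equal length, 47 within 10 kb and 58 to 79 with 1 library left out, in place of 57. Those near the NF-kB list numbered 9, 8 and 11 to 13, in place of 11. Those near the cytokine list fell to 3 within 10 kb and ran from 6 to 11 with 1 library left out, 11 without GFP LPS library 1. Covered promoter windows with the NF-kB letters numbered 13 of 15 in lists of equal length and 4 of 10 in windows of 150 bp, in place of 7 of 10. With 1 LPS library left out, 99 to 168 regions ranked higher in the GFP line (131 without GFP LPS library 1, 168 without Nur77 LPS library 2) and 74 to 110 in the Nur77 line (110 without GFP LPS library 1).  Without chromosome 12, an alternative chosen after seeing the data, the line counts were 83 and 57 of 425 (19.5% and 13.4%). The share over all ranked regions, chromosome 12 included, was 14.5% in each direction. In all, 89 of the recomputed values stayed within 1.5 times the reported ones and 9 did not. This compares counts only, not which regions were counted. Comparing only same-numbered libraries of the lines, a paired count also chosen afterwards, gave 123 regions higher in the GFP line (28.5%, against 20.8% of all ranked regions) and 85 in the Nur77 line (19.7%, against 24.0%). The labels do not say whether same-numbered libraries were prepared together. Deviations from the group means correlated at 0.0017, -0.015 and 0.039 between same-numbered libraries, which cannot settle this with 3 libraries per group. Motif windows over whole regions were not run because no genome was given. Depth limits what absence from a list means: regions under 5 to 8 reads at the summit were not detectable.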

Other observations

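The regions listed only after LPS were spread unevenly over the chromosomes. Chromosome 2 held 60 of the 432 (13.9%), against 8.16% of all regions, and chromosome 16 held 23 (5.32%, against 3.27%). Chromosome 12 held 7 (1.62%, against 4.73%). Of these, 4 ranked higher in the GFP line and 2 in the Nur77 line, against 14.5% in each direction over all 32220 ranked regions. The share over all ranked regions of chromosome 12 is not given here, so nothing is read from these 7. Part of the count on chromosome 2 came from the stretches at Cd44 and Ifih1, which together held 12 regions. These shares were not tested.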
